A study of Saccharomyces cerevisiae with 177 samples.

Results

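The genes described here are the 48 that encode Mediator and the preinitiation machinery of budding yeast among the 5794 genes of each table. They were chosen by systematic gene identifier: 25 code for Mediator subunits and 23 for RNA polymerase II, general transcription factors, TFIID subunits and Spt7. Their own newly made RNA was followed across every comparison of the study, and the gene whose product was depleted or altered in a strain is described separately there. Counts of members called include that targeted gene, while means over strains leave it out.

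Mediator is a large coactivator that bridges activators bound upstream of a gene and RNA polymerase II at the core promoter. Its tail module contacts activators, its middle and head modules contact the polymerase, a scaffold subunit joins the modules, and a separable kinase module restrains the complex. The preinitiation complex forms when TBP and TFIID or SAGA mark the promoter and TFIIA, TFIIB, TFIIE, TFIIF and TFIIH assemble with the polymerase, and the translocase of TFIIH opens the DNA. The genes that encode this machinery are themselves transcribed by it.

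The study measured RNA labelled for 5 min with 4-thioU in cells grown at 30 °C in synthetic complete medium, in 177 libraries of 60 groups. In 22 comparisons an auxin-inducible degron strain given 3IAA (labelled IAA in the HS and SM sets) was set against the same strain given DMSO, in 6 a mutant was set against its own wild type, and in 4 cells of the Med15 degron strain were compared under the conditions labelled HS and SM, whose meaning and duration the labels do not spell out. Each group held 3 libraries, apart from Med7_EWE3, Med21_EWE4 and Med21_WT with 2 each. Nothing in the labels says that libraries A, B and C came from separate cultures, so the p-values measure the spread between these libraries.

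All strains are MATalpha and share the alleles Dade2::hisG, leu2D0, lys2D0, met15D0, trp1D63 and ura3D0, and his3D200 (written D200 for med15del). The 3 strains med15del (Dgal11::HPH), med16del (Dsin4::TRP1) and WT (BY4705) carry no degron receptor. The remaining strains carry pGPD1-OSTIR::HIS3, the receptor driven by a constitutive promoter. RPB3-3xFlag::NATMX, a tag on one of the genes described here, is present in the strains CCL1, CDK8, Med1, Med1_5, Med2_15, Med5, Med7, Med10, Med12, Med14, Med14C, Med15 and Med16, in Med17 and in the HS and SM sets. Single 3xV5 IAA7 fusions were placed on CCL1, SRB10 (in the CDK8 strain, the gene SSN3), MED1, MED5, MED7, MED10, MED12, MED14, MED15, MED16 and MED19, and mini-degron forms on MED9 and MED17. Fusions were paired in Med1_5, Med2_15, Med15_Med16 (with the mini degron on MED16), Med15_Taf1 and Med15_Spt7. In Med7C and Med7N the chromosomal med7D::KanMX is covered by 2 plasmid parts of MED7, med7DC and med7DN, of which the part that lacks N (Med7C) or the part that lacks C (Med7N) carries the mini degron. In TID the chromosomal gene is med14DORF::KanMX, with pRGR1-med14DTID and a degron-tagged pRGR1-med14 TID on plasmids, and Med14C carries MED14-3xV5 IAA7 with a plasmid RGR1 fragment (D 2-704; TID2) and a plasmid MED14 (DTID)-mini degron. The alleles med7 EWE3, med7DN alone, med21 EWE4 and med6D Helix 1 replace the deleted chromosomal gene from an ars cen plasmid, as the wild-type copies of Med7_WT, Med21_WT and Med6_WT do. Each strain name stands for 1 listed strain, and whether other clones were tested was not given in the sources used here.

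Values in 162 libraries were a scaled signal, and whole read numbers from 2119071 to 10714175 could be recovered for 106 of them. The depth of the other 56 is unknown. The 15 libraries of the HS and SM sets were counts of 4384651 to 10032201 per library. Levels per kb are values divided by gene length in kilobases, with each library then scaled to a total of 1000000. Markers of mating type fitted the label: summed alpha-specific levels were 2450 to 13600 per kb and summed a-specific levels 5.82 to 76.7 per kb in control libraries. The genotype label of the Med31 libraries names a MED19 fusion, while their title names Med31, and the title was followed. In Med31_DMSO the RNA of SOH1, which encodes Med31, stood at 279, 293 and 271 per kb against 494, 445 and 507 in Med19_DMSO. The RNA of ROX3, which encodes Med19, stood at 342, 406 and 395 per kb against 269, 233 and 245.

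In undisturbed cells the members covered a wide range of levels. Over 28 control groups the median levels of the members ran from 37.1 to 998 per kb. These lay between percentile 20.7 and percentile 98.5 of the 5792 genes with a length, with the middle member at 62.9. TOA1 (YOR194C), the large TFIIA subunit, was highest at a median of 998 per kb, with group means from 255 to 1440. SOH1 (YGL127C) followed at 482 per kb and TAF12, a histone-fold subunit shared by TFIID and SAGA, at 444. The group means of these 3 genes overlapped widely, and RPO21, the largest polymerase subunit, stood close by at 440. SRB8 (Med12 of the kinase module) was lowest at 37.1 per kb, with SRB2 (Med20 of the head) at 37.7 and KIN28, the TFIIH kinase, at 60.0. The ranges of SRB8 and SRB2 overlapped each other, from 26.0 to 59.6 and from 22.9 to 82.2 per kb. These levels set tables side by side that were scaled separately by the submitters, so they describe the order of genes rather than a difference between strains.

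The tagged or plasmid-borne gene often stood apart in the control libraries of its own strain. RGR1, the Med14 scaffold, reached 1430, 1480 and 1430 per kb in Med14C_DMSO and 1010, 1360 and 986 in TID_DMSO, against a highest mean of 161 in any of the other 25 control groups. Every one of these 6 libraries lay above all those groups, with ratios to their median of 12.1 and 9.31. Both strains carry plasmid fragments of RGR1. MED6 in Med6_WT stood at 446, 464 and 388 per kb, 5.42 times the median of the other groups, and MED7 at 2.30 to 2.50 times its median in Med7N_DMSO, Med7C_DMSO and Med7_WT. These too are read from plasmids. On the low side, CSE2 (Med9) stood at 22.4, 19.9 and 25.7 per kb in Med9_DMSO, below every other group (40.6 to 93.8). NUT2 (Med10) stood at 33.7, 33.7 and 33.4 in Med10_DMSO, also below the other groups (35.7 to 124). The remaining low ratios were 0.582 for SOH1 in Med31_DMSO, 0.585 for MED7 in Med7_DMSO and 0.612 for GAL11 in Med15_DMSO. Of these, SOH1 and MED7 lay within the range of the other groups (177 to 779 and 118 to 361 per kb). MED1 in Med1_5_DMSO was 1.69 times its median, and the other targeted genes stood within the range of the other groups.

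**Figure D1:**
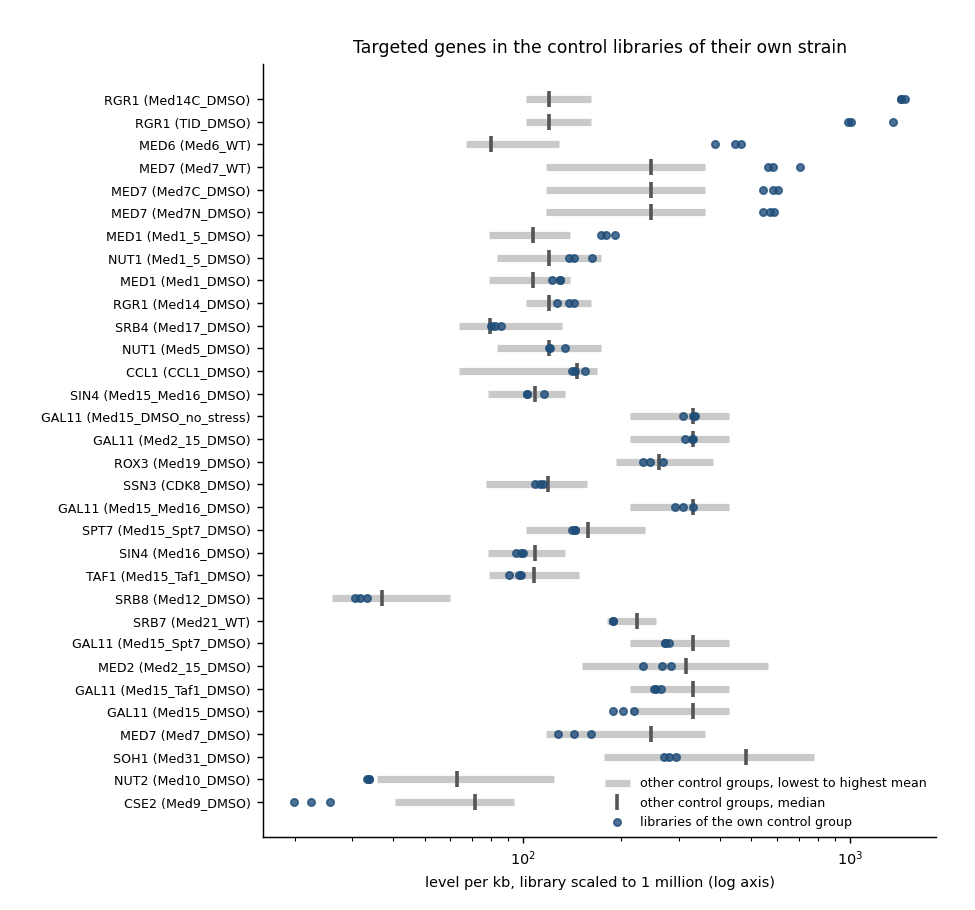
Level of each targeted gene in the control libraries of its own strain, per kb with each library scaled to a total of 1000000, on a log axis; points are libraries, grey bars span the means of the other control groups and ticks mark their median. RGR1 in Med14C_DMSO (1430 to 1480) and TID_DMSO (986 to 1360), MED6 in Med6_WT (388 to 464) and MED7 read from plasmids stand right of the grey bars, and CSE2 and NUT2 in their degron strains stand left of them.

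The targeted genes also checked the deletion labels. GAL11, which encodes the tail subunit Med15, gave signals of 1.05, 0.70 and 0.66 in med15del against 80.9, 78.9 and 83.2 in WT, a ratio of 101. SIN4, which encodes Med16, gave 0.13, 0.17 and 0.13 in med16del against 24.6, 23.4 and 25.2. Both deletion groups were far below WT in every library. A degron removes protein and not its gene, so in the degron strains the RNA of the targeted gene checks nothing about depletion.

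In 8 strains nearly every gene fell on depletion, and the machinery genes fell with the rest. On the deposited scale, with the limma test on log2(signal + 1) over every gene whose mean signal reached 10, and calls at an adjusted p under 0.05, all tested members fell in CCL1, Med10, Med14, Med14C, Med15_Taf1, Med17 and Med19. The numbers were 39 of 39 in CCL1 (against 99.8% of all tested genes), 44 of 44 in Med10 (99.8%), 35 of 35 in Med14 (99.7%) and 41 of 41 in Med14C (99.9%). They were 46 of 46 in Med15_Taf1 (99.9%), 41 of 41 in Med17 (99.7%) and 44 of 44 in Med19 (97.7%), and 45 of 46 fell in Med31 (97.3%), RAD3 being the exception. None of these shares stands apart from the background. In whole populations of cells, fewer labelled cells and less RNA per cell cannot be told apart.

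The size of the fall followed the strain. The median member changed by -2.29 (log2) in Med15_Taf1, -1.91 in Med10, -1.88 in CCL1, -1.77 in Med14, -1.66 in Med14C, -1.54 in Med17, -1.17 in Med19 and -0.82 in Med31. The median of all tested genes was more negative in each of them, at -2.50, -2.13, -2.18, -1.96, -1.79, -1.66, -1.23 and -0.83. The gap was 0.01 in Med31 and 0.30 in CCL1. In the split-subunit strains the median member changed by -0.70 in Med7N (43 of 43 fell, against 99.2% of all genes) and by -0.41 in Med7C (43 of 44, against 95.2%), with all-gene medians of -0.81 and -0.50.

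**Figure D2:**
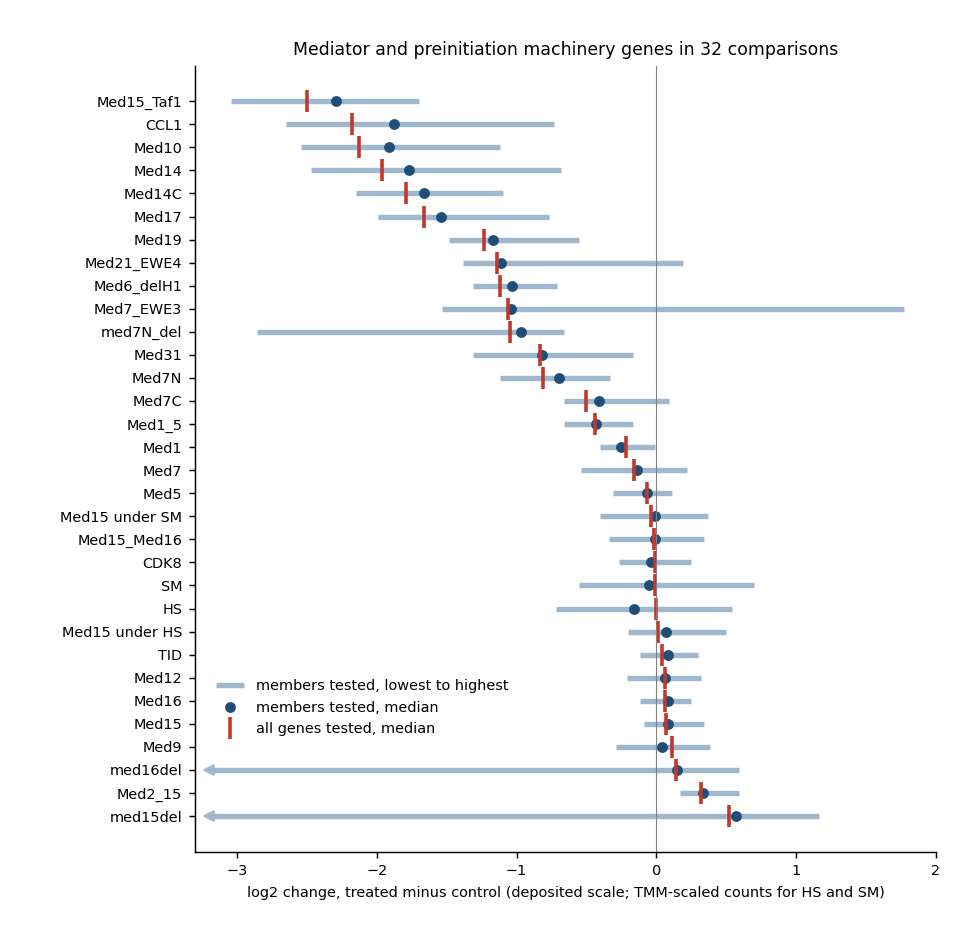
Log2 change of the members in each of the 32 comparisons: bars run from the lowest to the highest tested member, dots are the members' median and red ticks the median of all tested genes; arrows mark the deleted genes GAL11 and SIN4, which lie beyond the axis. In the 8 strong depletions the dot lies right of the tick, from -2.29 against -2.50 in Med15_Taf1 to -0.82 against -0.83 in Med31.

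Because nearly every gene fell, the members were also compared with the typical gene of the same libraries, by TMM scaling of the signal and the same limma test. Most members called on that scale were higher, meaning that they fell less than the typical gene. In CCL1, 24 of 39 were higher and 3 lower, where 36.8% and 37.9% of all genes were called. Without the filter on mean signal, 25 of 48 members were higher and 10 lower in CCL1, so the balance there depended in part on the filter. The share of all genes on that setting is not given here. Med10 had 27 of 44 higher and 5 lower (36.1% and 36.6%), and Med15_Taf1 27 of 46 higher and 7 lower (36.4% and 38.5%). Med14 had 17 of 35 higher and 2 lower (28.6% and 28.6%), Med14C 23 of 41 higher and 3 lower (32.4% and 33.1%), and Med17 17 of 41 higher and 5 lower (26.3% and 28.6%). With weaker falls, Med19 had 13 of 44 higher and 1 lower (21.4% and 19.5%) and Med31 8 of 46 higher and 3 lower (17.9% and 20.4%). In Med31 the share of members called higher, 17.4%, was close to the background. Med7N had 17 of 43 higher and 4 lower (19.5% and 21.6%), and Med7C 8 of 44 higher and none lower (8.62% and 15.4%). With libraries left out in turn the count of Med7N fell from 21 to 13 without Med7N_DMSO replicate A, that of Med31 from 11 to 7 without Med31_DMSO replicate B, and that of Med7C from 8 to between 3 and 5 without 3IAA replicate A or C or any DMSO library. With the replicate letter as a block, 16 members were called in Med7C.

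The same few genes stood at the ends in strain after strain. Of the 48 members, 35 were tested in all 8 strong depletions, and SRB2 in none. Of those 35, 26 had a mean change above that of the median gene and 9 at or below it. Higher calls in all 8 came from RAD3, SSL2, MED1, RPB2 and TFA1, and in 7 of 8 from TAF5, SIN4, RPO21 and NUT1. RGR1 was called higher in each of the 6 strains where it was not the targeted gene. Lower calls in at least 4 came from ROX3, SSN2 and SSN3 and from no other member. How many of all genes were called in as many strains was not counted, so these repeated calls have no background beside them. The promoter windows of the 2 members with the highest mean and of the 2 kinase-module members at the low end are printed here because these genes mark the ends of the order. Each runs from 250 bases before the start codon to 50 bases after its start, from RefSeq's assembly R64 (sacCer3), given on the gene's own strand. Capitals mark TATAAA or TATATA on either strand in the 250 bases before the start codon. Matches in the last 50 bases, as in RAD3, were neither marked nor counted.
RAD3, chrV:526832-527131, plus strand: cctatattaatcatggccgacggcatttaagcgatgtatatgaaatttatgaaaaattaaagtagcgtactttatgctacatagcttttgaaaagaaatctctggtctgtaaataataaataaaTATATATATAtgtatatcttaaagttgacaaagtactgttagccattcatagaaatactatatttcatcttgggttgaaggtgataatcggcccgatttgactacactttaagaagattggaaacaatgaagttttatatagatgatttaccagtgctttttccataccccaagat
SSL2, chrIX:82992-83291, minus strand: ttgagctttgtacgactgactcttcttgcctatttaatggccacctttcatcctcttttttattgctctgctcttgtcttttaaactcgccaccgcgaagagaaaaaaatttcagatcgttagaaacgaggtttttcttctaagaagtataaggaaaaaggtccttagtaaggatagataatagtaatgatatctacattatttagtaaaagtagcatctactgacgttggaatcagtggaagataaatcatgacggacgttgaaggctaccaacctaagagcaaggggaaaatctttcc
SSN2, chrIV:1349889-1350188, minus strand: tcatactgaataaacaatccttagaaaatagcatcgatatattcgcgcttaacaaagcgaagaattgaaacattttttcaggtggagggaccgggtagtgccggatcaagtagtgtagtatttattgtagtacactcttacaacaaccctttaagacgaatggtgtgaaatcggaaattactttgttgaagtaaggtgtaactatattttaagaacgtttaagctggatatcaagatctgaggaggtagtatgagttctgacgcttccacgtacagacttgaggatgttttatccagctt
SSN3, chrXVI:474658-474957, minus strand: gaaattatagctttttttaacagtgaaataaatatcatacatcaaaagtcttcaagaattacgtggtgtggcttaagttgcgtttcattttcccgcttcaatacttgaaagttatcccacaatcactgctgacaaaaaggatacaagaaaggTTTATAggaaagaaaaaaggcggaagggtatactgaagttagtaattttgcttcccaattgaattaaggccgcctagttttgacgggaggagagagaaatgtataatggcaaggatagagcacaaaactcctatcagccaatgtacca
The RAD3 window held overlapping TATATA matches at 122, 124 and 126 bases before the start codon, and the SSN3 window held TTTATA, the reverse complement of TATAAA, 98 bases before it. Neither SSL2 nor SSN2 held either word. Counted before the start codon, one or both words were in 27 of the 48 member windows (56.2%) and in 3337 of 5792 windows of all genes (57.6%). TATAAA was in 39.6% and 42.8%, and TATATA in 29.2% and 31.8%. The windows of ROX3, which had the lowest mean, and of MED1, next after SSL2 at the high end, are not printed and held neither word. Among these genes only RAD3 at the high end and SSN3 at the low end held a match. The words were about as common in the members as in all genes.

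RAD3 (YER171W), which encodes a DNA helicase of TFIIH, fell least on average of the 35 members tested in all 8 strains. In Med14 its signals were 18.7, 15.6 and 16.9 after 3IAA against 26.9, 26.8 and 30.1 in DMSO. The groups did not overlap, and the fall of 1.64-fold (log2 -0.68 ± 0.16 SE, limma adjusted p = 0.000106) lay far from the all-gene median of -1.96. Relative to the typical gene RAD3 was higher by 1.29 ± 0.09 (adjusted p = 1.17e-05). In CCL1 it stood at 16.7, 18.2 and 16 against 32.4, 39.4 and 34.0, again without overlap, and was higher by 1.17 ± 0.07 on the relative scale (adjusted p = 1.13e-06). In Med31 the signals were 42.2, 36.1 and 39.4 against 43.6, 45.2 and 43.2. Those groups did not overlap either, but the change of -0.17 ± 0.10 did not pass on the deposited scale (adjusted p = 0.101; 0.0265 without Med31_3IAA replicate A), while the relative value was 0.67 ± 0.07. Over the 8 depletions its change minus the all-gene median averaged 0.89, from 0.67 to 1.28, and without the pseudocount 0.95, from 0.69 to 1.37. RAD3 is also one of the members with little RNA, at 60.7 per kb.

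SSL2 (YIL143C), the TFIIH translocase that opens promoter DNA, averaged 0.58 above the median gene, from 0.42 to 0.99. Its signals in Med14 were 19.2, 19.5 and 20.9 against 39.1, 34.0 and 47.4, a fall of 2.02-fold, and in CCL1 33.3, 35.3 and 34.9 against 109, 110 and 108, a fall of 3.15-fold. Neither pair of groups overlapped. Of the other TFIIH genes tested in all 8, CCL1, the cyclin partner of Kin28, averaged 0.32 outside its own strain and TFB1, a core subunit, 0.12.

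MED1 (YPR070W), a non-essential subunit of the middle module, averaged 0.53, and its spread was wide, from 0.19 in Med15_Taf1 to 1.45 in CCL1. In CCL1 it stood at 23.6, 23.2 and 21.1 against 33.7, 43.1 and 37.9, a fall of 1.69-fold without overlap (log2 -0.73 ± 0.10, adjusted p = 3.89e-06), while it was 1.47 ± 0.08 higher on the relative scale (adjusted p = 7.32e-07). In Med15_Taf1 it went from 104, 122 and 107 to 21.7, 20.8 and 22.4, a fall of 5.13-fold. The 2 large polymerase genes behaved alike in size: RPO21 averaged 0.38 and RPB2 0.34, with the tagged RPB3 at 0.26. TFA1, the large TFIIE subunit, averaged 0.37 and TAF5, shared by TFIID and SAGA, 0.41.

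Among the 35 members tested in all 8 strains, part of the kinase module and ROX3 stood at the other end. Members too low to be tested in every strain have no place in this order. In CCL1 the untested TOA2 went from 14.4, 14.8 and 15.4 to 0.69, 1.32 and 0.93. MED8, also untested there, went from 9.9, 9.7 and 10.4 to 0.96, 1.0 and 1.23, and NUT2 from 3.58, 4.94 and 4.76 to 1.44, 1.4 and 1.42. SSN2 (YDR443C), the Med13 link between kinase module and core Mediator, fell from 130, 135 and 136 to 21.9, 22.4 and 22 in Med10. The groups lay 6.04-fold apart (log2 -2.54 ± 0.06), and SSN2 was lower than the typical gene by -0.38 ± 0.05 (adjusted p = 5.05e-05). Its mean over the 8 depletions was -0.26, from -0.50 in Med14 to 0.03 in Med14C. SSN3 (YPL042C), the kinase Cdk8, fell from 100, 105 and 112 to 12.5, 11.3 and 12.1 in Med15_Taf1, a fall of 8.83-fold without overlap (log2 -3.04 ± 0.08; relative -0.53 ± 0.06, adjusted p = 3.58e-06). In CCL1 the same gene went from 33.9, 36.5 and 30.8 to 11.1, 10.5 and 10.4, a fall of 3.16-fold, which was higher than the typical gene by 0.59 ± 0.08 (adjusted p = 9.01e-05). The sign of SSN3 on the relative scale therefore differed between CCL1 and the strains where it was called lower, and its mean was -0.20. Its lower call in Med19 (adjusted p = 0.0197) was lost without Med19_3IAA replicate C (adjusted p = 0.0677) or Med19_DMSO replicate B (0.097). In Med14 SSN3 was not called (-0.31 ± 0.14, adjusted p = 0.0945), but passed with the replicate letter as a block (-0.31, adjusted p = 0.0371).

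ROX3 (YBL093C), the Med19 subunit of the middle, fell from 41.8, 45.6 and 48.2 to 6.27, 6.0 and 6.73 in CCL1, 7.14-fold (relative -0.53 ± 0.09, adjusted p = 0.000415). In Med31 it fell from 75.3, 88.6 and 82.8 to 31.5, 31.4 and 34.4, 2.53-fold (relative -0.48 ± 0.09, adjusted p = 0.00262). The groups did not overlap in either strain. Leaving out Med19, where ROX3 is the targeted gene, its mean change minus the all-gene median was -0.28, from -0.48 to -0.03. That mean includes Med31, whose genotype label names a MED19 fusion, so ROX3 could be the targeted gene there too.

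**Figure D3:**
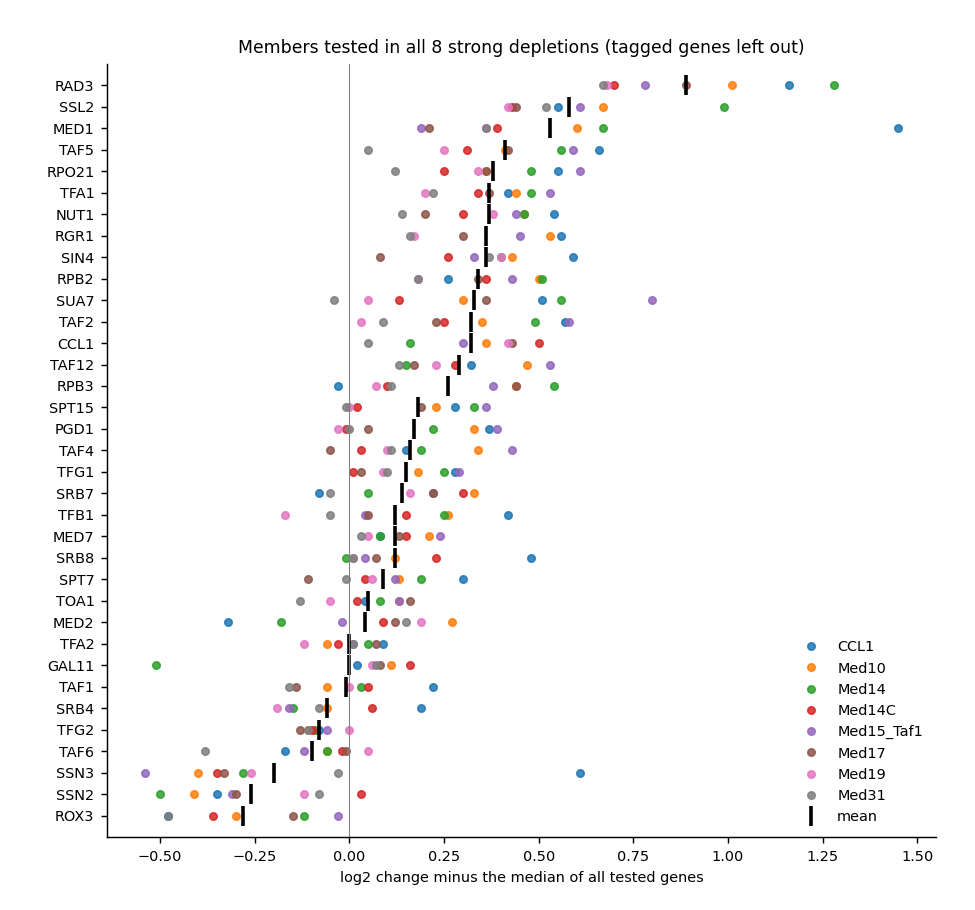
Change of each member minus the median change of all tested genes (log2) in the 8 strong depletions; members are ordered by their mean, points are strains and the targeted gene of a strain is left out of its mean. Among the members tested in all 8, RAD3 (0.89), SSL2 (0.58) and MED1 (0.53) stand at the high end, and ROX3 (-0.28), SSN2 (-0.26) and SSN3 (-0.20) at the low end.

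By role, the calls relative to the typical gene were counted over the 8 strains as tests of 1 gene in 1 strain, with the targeted gene left out. The shares of all genes called in each strain are those given above, and the role counts were not tested against them. The scaffold gene RGR1 was higher in 6 of 6 tests, and the 3 polymerase genes were higher in 20 of 24 and lower in none. All 3 polymerase genes were higher in Med10, Med14, Med14C, Med15_Taf1 and Med17, 2 of 3 in CCL1 and Med19 and 1 of 3 in Med31. SUA7 was higher in 6 of 8. The 5 TFIIH genes were higher in 25 of 36 tests and lower in 2, both from KIN28, in Med15_Taf1 and Med17. Counting the targeted gene, 4 of 4 tested TFIIH genes were higher in CCL1 and Med14C, 4 of 5 in Med10 and 3 of 4 in Med14. The numbers were 3 of 5 in Med15_Taf1, Med17 and Med19 and 2 of 5 in Med31. In CCL1, Med14 and Med14C KIN28 was too low to be tested, so these counts leave it out. It was higher in none of the 5 strains where it was tested. Its signals were 2.22 to 2.76 against 13.1 to 17.4 in CCL1 and 1.95 to 2.12 against 8.58 to 12.8 in Med14. In Med14C they were 3.92 to 4.72 against 15.6 to 16. The typical gene fell 4.92-fold, 4.22-fold and 3.67-fold in CCL1, Med14 and Med14C. The tail genes were higher in 23 of 39 tests and lower in 1, and the TAF genes higher in 22 of 47 and lower in 1.

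The kinase module had the most lower calls, 10 of 30 tests, against 4 higher. Its share of lower calls lay within the range of the all-gene lower shares given above for the 8 strains. In CCL1 SSN3, SSN8 and SRB8 were higher and SSN2 lower, and in Med14C SRB8 was higher and SSN3 lower. In the other 6 strains no kinase gene was higher, and 2 were lower in Med10, Med15_Taf1 and Med17, 1 in Med14 and Med19 and none in Med31. The middle genes were called both ways, higher in 14 of 45 tests and lower in 9, and the head genes higher in 6 of 33 and lower in 5. The share of middle genes called higher also lay within the range of the all-gene higher shares. Of the TFIIF genes, TFG1 was higher in CCL1, Med10, Med14 and Med15_Taf1, by 0.35, 0.25, 0.31 and 0.37 with TMM scaling, and not called in the other 4, while TFG2 was called in none of the 8.

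Each strain also had members at its extremes beyond those named. TAF5 fell less in CCL1 (77.1, 86.6 and 77.4 against 225, 251 and 221, relative 0.74 ± 0.06), and SUA7, which encodes TFIIB, in Med15_Taf1 (31.3, 29.1 and 34.8 against 104, 102 and 109, relative 0.85 ± 0.06). CCL1 was among the 3 highest in Med14C (relative 0.52) and Med19 (0.42), and RPB3 in Med17 (0.45 ± 0.08). NUT2 in Med31 stood at 9.27, 6.42 and 10.7 against 12.2, 12.9 and 10.5, overlapping, and its fall (adjusted p = 0.0198) was lost without Med31_3IAA replicate B (adjusted p = 0.152). Its relative value of 0.36 (adjusted p = 0.101) passed without that library (0.53, adjusted p = 0.0251). Among the low values, the head gene MED8 fell 7.18-fold in Med10 and 8.43-fold in Med15_Taf1 as ratios of mean signals, to signals of 2.38 to 4.93. At such low signals the pseudocount shortens its log2 change but not these ratios. MED4 of the middle was low in Med14C (relative -0.32), Med17 (-0.32) and Med19 (-0.23), the first and second of these called. Its call in Med17 (adjusted p = 0.0136) was lost without Med17_3IAA replicate C (0.0579). MED2 of the tail in CCL1 (-0.28, adjusted p = 0.111) and the head gene SRB4 in Med19 (-0.19, adjusted p = 0.0837) were low but not called. MED2 passed without CCL1_3IAA replicate A (adjusted p = 0.0359) or CCL1_DMSO replicate A (0.0209), and SRB4 without Med19_DMSO replicate A (0.0302).

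GAL11 in Med14 varied between libraries: its signals after 3IAA were 48.2, 26.7 and 29.1 against 199, 171 and 203, with replicate A above the other 2. It was lower than the typical gene by -0.43 ± 0.14 (adjusted p = 0.0246), a call that was lost without 3IAA replicate B (0.0906) or C (0.101) or DMSO replicate B (0.0548) or C (0.0556). TAF6, a histone-fold TAF, fell more than the typical gene in Med31 (24.7, 23.9 and 26.6 against 57.4, 63.2 and 57.6, relative -0.38 ± 0.09, adjusted p = 0.00541).

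The targeted genes did not move as a group in these strains. CCL1 in its own strain stood at 10.3, 12.7 and 12.8 against 43.9, 49.3 and 43.1 and was higher than the typical gene by 0.33 ± 0.08. RGR1 was higher in Med14 (0.47 ± 0.08) and Med14C (0.29 ± 0.05), and GAL11 and TAF1 in Med15_Taf1 (0.19 ± 0.05 and 0.23 ± 0.06). SRB4 in Med17 (-0.05 ± 0.07, adjusted p = 0.582) and ROX3 in Med19 (-0.16 ± 0.08, adjusted p = 0.131) were not called, and SOH1 in Med31 was lower (15.9, 15.4 and 16.4 against 35.5, 37.0 and 32.8, relative -0.27 ± 0.09, adjusted p = 0.0287). That call was lost without 3IAA replicate A (0.0904) or B (0.0625) or DMSO replicate A (0.0572) or B (0.103). NUT2 in Med10 was too low to be tested, with signals of 1.08, 1.47 and 1.51 against 6.0, 6.12 and 5.74. In the split strains, MED7 was not called on the deposited scale in Med7C (124, 108 and 101 against 114, 97.5 and 101), where the typical gene fell, so that it was higher by 0.61 ± 0.07 on the relative scale (adjusted p = 0.000622). In Med7N it fell from 98.3, 99.3 and 94.2 to 60.9, 56.7 and 56.3, by about as much as the typical gene (relative 0.09 ± 0.05, adjusted p = 0.165).

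**Figure D4:**
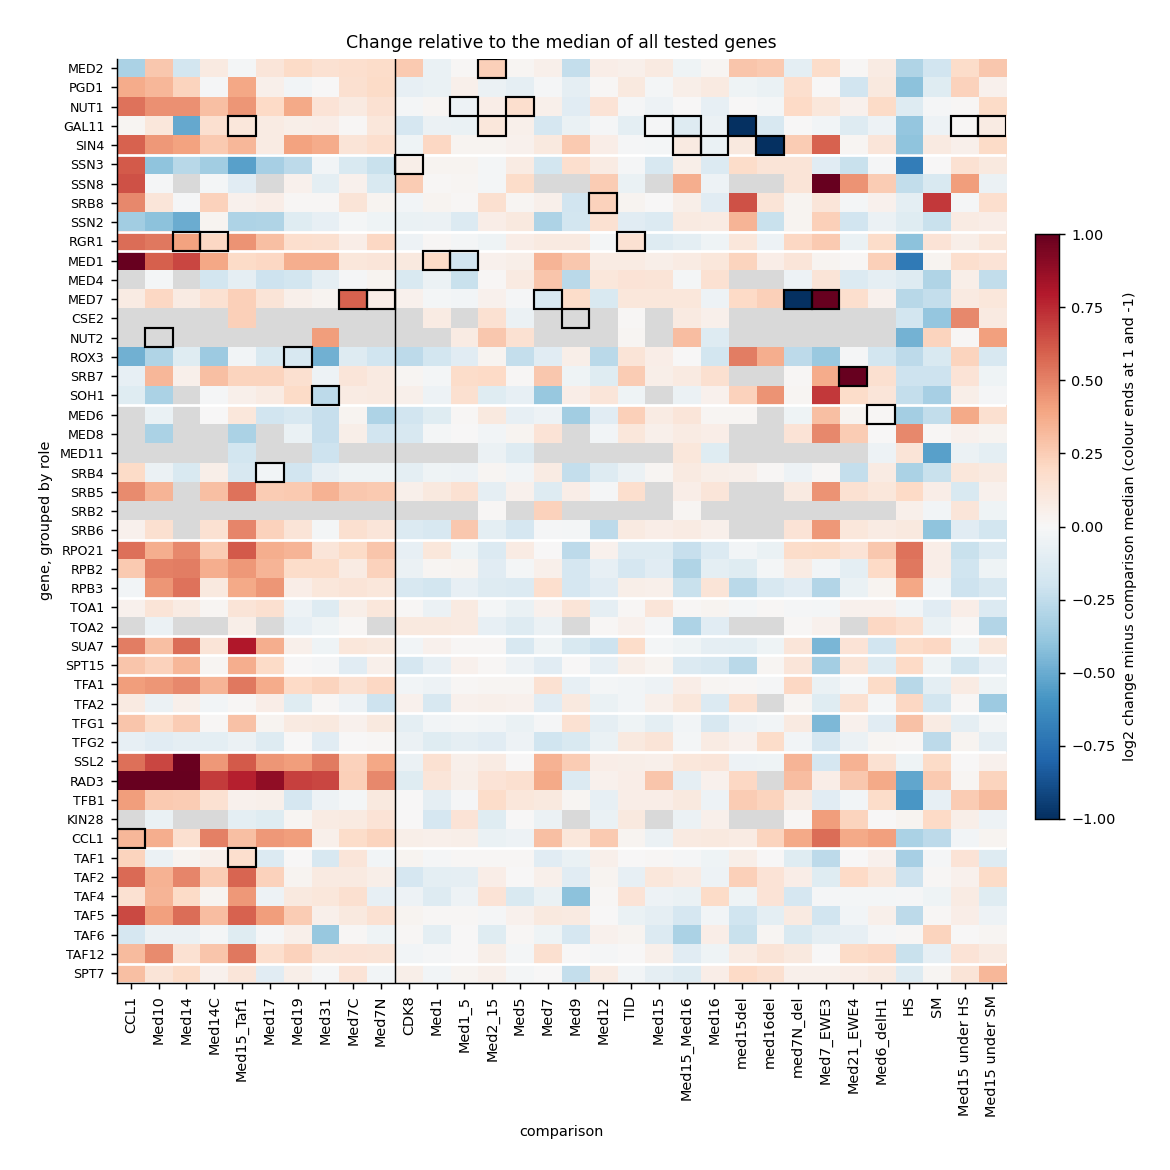
Log2 change minus the comparison's median over all tested genes for the 48 members, grouped by role, in 32 comparisons; grey cells were not tested, black boxes mark targeted genes and colours end at 1 and -1. The RAD3 and SSL2 rows are red through the strong depletions left of the line (means 0.89 and 0.58), and the SSN2 and ROX3 rows are mostly blue there (means -0.26 and -0.28).

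In 6 depletions no member passed the test. In CDK8, Med5, Med7, TID, Med15 and Med16 limma called none of the 44, 47, 44, 46, 40 and 47 members tested. Of all tested genes, 4.92% were lower and 7.53% higher in CDK8, 0.165% and 0.536% in Med5, 9.01% and 0.199% in Med7, 4.86% and 0.862% in TID, 4.45% and 0.66% in Med15, and 1.17% and 1.17% in Med16. At an unadjusted p under 0.05 there were 4 members in CDK8, 5 in Med5, 2 in Med7, 2 in TID and 0 in Med15 and Med16. The edgeR test on recovered reads called 2 members in CDK8 and 0 in Med5, Med7 and Med16, and it was not run for TID and Med15. With the replicate letter as a block, 2 members were called in Med5 and 2 in TID. Without CDK8_3IAA replicate A or CDK8_DMSO replicate B 1 member was called in CDK8, without Med7_DMSO replicate C 2 in Med7, and without Med15_DMSO replicate A 1 in Med15.

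RAD3 had no call in these strains: in Med15 it stood at 26.8, 30.9 and 26.9 against 27.2, 22.3 and 17.4, with overlap (log2 0.34 ± 0.20, adjusted p = 0.594). The targeted genes were not called either. GAL11 in Med15 stood at 95.9, 131 and 95.5 against 116, 102 and 88.8, and SIN4 in Med16 at 118, 112 and 123 against 129, 125 and 101. SSN3 in CDK8 (51.8, 45.8 and 48.9 against 50.9, 45.8 and 44.8), NUT1 in Med5 (205, 209 and 206 against 180, 215 and 186) and RGR1 in TID (1170, 1480 and 1180 against 1030, 1440 and 931) overlapped their controls as well. MED7 in Med7 stood at 13.6, 13.8 and 12.7 against 17.6, 16.2 and 16.5, without overlap, but its change of -0.31 ± 0.20 did not pass (adjusted p = 0.439).

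In Med12, 3 of 44 members rose (12.5% of all genes rose and 4.84% fell). SRB8, the targeted gene itself, stood at 38.1, 40.0 and 36.3 against 32.8, 29.6 and 30.6 (1.23-fold, log2 0.29 ± 0.08, adjusted p = 0.0354). CCL1 rose by 0.32 ± 0.08 and SSN2, its neighbour in the kinase module, by 0.21 ± 0.07. The treated and control libraries of these 3 genes did not overlap, yet leaving out any 3IAA library, or DMSO replicate B or C, left no member called, and leaving out DMSO replicate A gave 6. With TMM scaling SRB8 and CCL1 were higher and ROX3, SRB6 and SUA7 lower (11.2% and 13.0% of all genes), and SSN2 was not called.

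In Med15_Med16, 1 of 48 rose and 2 fell (11.2% and 15.9% of all genes), and 8 were called with the replicate letter as a block. With TMM scaling 2 were higher and 6 lower (20.6% and 22.2%), the 6 including all 3 polymerase genes. SSN8, the cyclin of Cdk8, rose from 42.9, 41.8 and 38.6 to 54.4, 52.4 and 49.8. RPB2 fell from 319, 323 and 246 to 232, 246 and 226 and TAF6 from 98.4, 94.8 and 73.6 to 70.7, 69.3 and 68.8, with DMSO replicate C low for both. Without that library 8 members were called, and without any one of the other 5 libraries 0 or 1. The targeted GAL11 (-0.16 ± 0.13, adjusted p = 0.417) and SIN4 (0.07 ± 0.12, adjusted p = 0.725) were not called.

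Med9 gave more calls, 13 higher and 2 lower of 40, against 37.4% and 9.44% of all genes. Relative to the typical gene the balance turned, with 7 higher and 14 lower (25.3% and 24.3% of all genes), the lower ones including all 3 polymerase genes. MED1 rose from 25.3, 24.6 and 25.1 to 35.0, 31.8 and 32.2, and SIN4 and SSL2 rose by 0.37 each. TAF4, a TFIID-specific TAF, fell from 40.8, 41.0 and 40.0 to 32.8, 32.1 and 33.8, and the head gene MED6 fell by 0.24 (log2). The targeted CSE2 was too low to be tested, at 1.32, 1.82 and 1.83 against 1.68, 1.47 and 1.83.

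Depletions that shifted all genes slightly moved the members as far as the rest. In Med1, 20 of 45 fell (36.2% of all genes), in Med1_5 38 of 45 fell (78.0%), and in Med2_15 27 of 48 rose (44.6%). The members' medians were -0.25, -0.43 and 0.33, and those of all genes -0.22, -0.44 and 0.32. With TMM scaling 1, 0 and 0 members were called. Single libraries set these counts. Without Med1_DMSO replicate C 37 members were called in Med1, and without any one of the other 5 libraries 3 to 9. Without Med1_5_3IAA replicate C 12 were called in Med1_5. In Med2_15, 47 were called without DMSO replicate C and 3 to 9 without any one of the others. The targeted genes followed the shift: MED2 in Med2_15 rose from 250, 230 and 316 to 370, 382 and 417 and GAL11 from 775, 775 and 918 to 1090, 1110 and 1120. NUT1 in Med1_5 fell from 258, 192 and 178 to 146, 166 and 133 and MED1 there from 151, 120 and 112 to 78.5, 88.6 and 78.5, and none of these 4 was called relative to the typical gene. GAL11 was lost without Med2_15_DMSO replicate B (adjusted p = 0.0538) and NUT1 without Med1_5_3IAA replicate C (0.0702). MED1 in the Med1 strain was not called (-0.02 ± 0.11, adjusted p = 0.852), its groups of 89.5, 75.9 and 83.1 and 91.0, 83.1 and 78.5 overlapping.

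Among the constitutive mutants, loss of GAL11 and loss of MED7's N part went opposite ways on the deposited scale. In med15del 35 of 36 tested members were higher and only the deleted GAL11 lower (87.6% of all genes were higher and 5.28% lower). The filter used the mean over both groups, so some members reached 10 only through the mutant libraries. In WT, RAD3 stood at 8.75, 8.8 and 9.8, TFA2 at 7.25, 7.87 and 8.83 and MED6 at 8.73, 9.14 and 9.16. The members' median was 0.57 and that of all genes 0.52. SRB8 rose from 10.6, 10.8 and 10.8 to 24.2, 25.5 and 26.2, ROX3 from 13.1, 14.1 and 14.1 to 30.4, 29.5 and 27.7, and SSN2 from 17.1, 17.5 and 18.5 to 33.6, 34.4 and 30.8. No mutant library overlapped WT for these 3 genes. They were also higher than the typical gene, by 0.65 ± 0.06, 0.52 ± 0.05 and 0.34 ± 0.05. These 3 genes were chosen after their values were seen. On that scale 13 members were higher and 5 lower (23.9% and 22.0% of all genes). The higher ones included all 3 tested kinase-module and all 4 tested middle-module genes, and the lower ones were GAL11, RPB3, SPT15, TAF5 and TAF6.

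In med16del, which shares the WT libraries with med15del, 12 of 33 tested members were higher and SIN4 lower (28.9% and 8.82% of all genes). With TMM scaling 9 were higher and 3 lower (19.8% and 19.7%), the 3 being GAL11, SIN4 and SSN2. SOH1 rose from 15.2, 16.2 and 15.5 to 24.8, 24.4 and 22.9 (log2 0.59 ± 0.10, adjusted p = 1.43e-07) and ROX3 from 13.1, 14.1 and 14.1 to 21.6, 18.8 and 19.4, both without overlap and named after their values were seen. The count of 13 called members fell to 6 without WT replicate A and to 8 without WT replicate B or med16del replicate B. Many members have low signals in these 9 libraries, which is why 12 and 15 members went untested.

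The plasmid-borne mutants of the middle and head lowered nearly all members. In med7N_del 44 of 44 fell (99.0% of all genes, median -0.97 against -1.05), in Med6_delH1 45 of 45 (99.8%, -1.03 against -1.12) and in Med21_EWE4 42 of 43 (98.3%, -1.11 against -1.14). In Med7_EWE3, which shares the Med7_WT libraries with med7N_del, 42 of 44 fell and MED7 alone rose (97.0% and 0.602% of all genes, median -1.04 against -1.06). Relative to the typical gene 9 members were higher and 2 lower in med7N_del (18.3% and 18.0% of all genes), 8 and 0 in Med6_delH1 (10.9% and 10.4%), 3 and 0 in Med21_EWE4 (5.2% and 8.06%) and 13 and 5 in Med7_EWE3 (22.9% and 23.9%). The mutated gene stood out in several of them. MED7 stood at 465 and 416 in Med7_EWE3 against 117, 128 and 142 in Med7_WT, 3.42-fold higher (log2 1.77 ± 0.14, adjusted p = 3.1e-09), and at 18.3, 17.6 and 14.8 in med7N_del, 7.62-fold lower. The med7DN allele is shortened, so fewer reads can fall in MED7 there. SRB7 (Med21) stood at 23.3 and 33.7 in Med21_EWE4 against 24.3 and 24.7, overlapping, while the typical gene fell 2.25-fold. It was thus higher on the relative scale by 1.32 ± 0.12 (adjusted p = 0.000476), and on the deposited scale it passed without Med21_EWE4 replicate A (0.44, adjusted p = 0.0127). MED6 in Med6_delH1 fell from 152, 134 and 118 to 68.3, 60.3 and 57.4, like the typical gene (relative 0.05 ± 0.08, adjusted p = 0.657). SSN8 in Med7_EWE3, named after its values were seen, was the other member not lowered, at 14.3 and 14.7 against 15.5, 14.3 and 14.9.

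Differences between depletions were tested as differences of differences. Each of the 44 members tested changed more negatively in Med15_Taf1 than in Med15, with a median difference of -2.37 (99.8% of all genes differed in either direction). Each of 39 changed more negatively in Med14 than in Med15, with a median of -1.81 (99.5%). In Med15 itself no member was called. With TMM scaling 20 and 16 members differed, 19 and 16 of them less negative than the typical gene. RAD3 was among these in both, by 0.50 (adjusted p = 0.00504) and 1.01 (adjusted p = 9.68e-05). On that scale 1077 of all 4572 genes tested were more positive and 1165 more negative between Med15_Taf1 and Med15. The numbers between Med14 and Med15 were 678 and 699 of 3867. Between Med14 and CCL1, depletions of similar size, 4 of 38 differed (18.7% of all genes). RPB3 fell less in Med14 (14.4, 14.7 and 13.8 against 43.8, 33.1 and 44.3) than in CCL1 (13.7, 16.8 and 13.0 against 76.5, 68.5 and 65.4), by 0.78 ± 0.18 (adjusted p = 0.00671), and SSL2 likewise by 0.66 ± 0.17 (adjusted p = 0.0106). SSN3 and MED1 fell more in Med14, by -0.67 ± 0.21 (adjusted p = 0.0349) and -0.57 ± 0.17 (adjusted p = 0.0257). In Med14 SSN3 stood at 8.88, 7.55 and 5.33 against 43.6, 30.8 and 39.0 and MED1 at 14.8, 14.6 and 12.4 against 35.5, 32.8 and 38.6. The count of 4 fell to 2 without Med14_3IAA replicate C, CCL1_3IAA replicate A or B, or CCL1_DMSO replicate A or C.

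In the condition labelled HS, with the Med15 degron intact, polymerase genes rose and tail genes fell. The edgeR quasi-likelihood test on counts with TMM called 9 of 48 members higher and 25 lower, where 36.9% and 37.6% of all genes were called. The members' median was -0.16 and that of all genes -0.00, with Mediator genes at -0.25 and the others at -0.01. RPO21 (YDL140C) went from 1680, 1620 and 1630 to 2330, 2480 and 2370 in TMM-scaled counts per 1000000, or CPM (1.45-fold, log2 0.54 ± 0.05, adjusted p = 1.97e-08), RPB2 from 399, 386 and 393 to 552, 603 and 538, and RPB3 rose too, so that all 3 polymerase genes were higher. SUA7, SPT15 (TBP), TFA2 and TFG1 rose, as did MED8 (48.7, 55.2 and 53.8 to 70.3, 68.4 and 80.0, 1.39-fold) and SRB5 of the head.

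All 5 tail genes fell under HS, as did RGR1, 6 of 8 middle genes, 3 of 5 TFIIH genes, 4 of 6 TAF genes and SPT7, a SAGA scaffold. MED1 went from 131, 123 and 122 to 76.1, 74.7 and 78.9 CPM, 1.64-fold lower (log2 -0.72 ± 0.06, adjusted p = 1.12e-08). SSN3 went from 131, 133 and 140 to 82.6, 85.5 and 81.3, 1.62-fold lower, and TFB1 from 155, 137 and 136 to 94.9, 99.8 and 89.8, 1.5-fold lower. None of these groups overlapped. RAD3 stood at 69.6, 76.5 and 57.8 against 93.5, 95.2 and 107 and fell by 0.52 on the log2 scale (adjusted p = 0.000502), while SSL2 was not called (adjusted p = 0.5).

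The condition labelled SM, compared with the same unstressed libraries, changed fewer members. Of 48, 5 rose and 15 fell (26.4% and 26.2% of all genes). SRB8 (YCR081W) stood out, going from 130, 120 and 131 to 200, 205 and 215 CPM (1.63-fold, log2 0.70 ± 0.07, adjusted p = 3.24e-07). SUA7, SSL2, KIN28 and TAF6 rose too, the last from 114, 98.8 and 108 to 121, 122 and 128 (0.21 ± 0.07, adjusted p = 0.0133), a call lost without Med15_DMSO_SM replicate C (0.0548) or the unstressed replicate B (0.0857). RAD3, at 120, 108 and 120 against 93.5, 95.2 and 107, did not overlap and did not pass (adjusted p = 0.068; 0.0493 without the unstressed replicate C and 0.00695 on the libraries compared alone). Of the 15 falls, 10 were in the middle (6 of 8 genes) and head (4 of 7), and the others were MED2, SSN2, TFA2, TFG2 and CCL1. MED11 went from 48.5, 53.4 and 46.7 to 34.6, 36.6 and 30.2, 1.46-fold lower (adjusted p = 0.000167), SRB6 from 91.5, 95 and 106 to 68.1, 73.4 and 77.7, and CSE2 from 31.6, 29.1 and 32.4 to 23.9, 22.4 and 23.9.

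**Figure D5:**
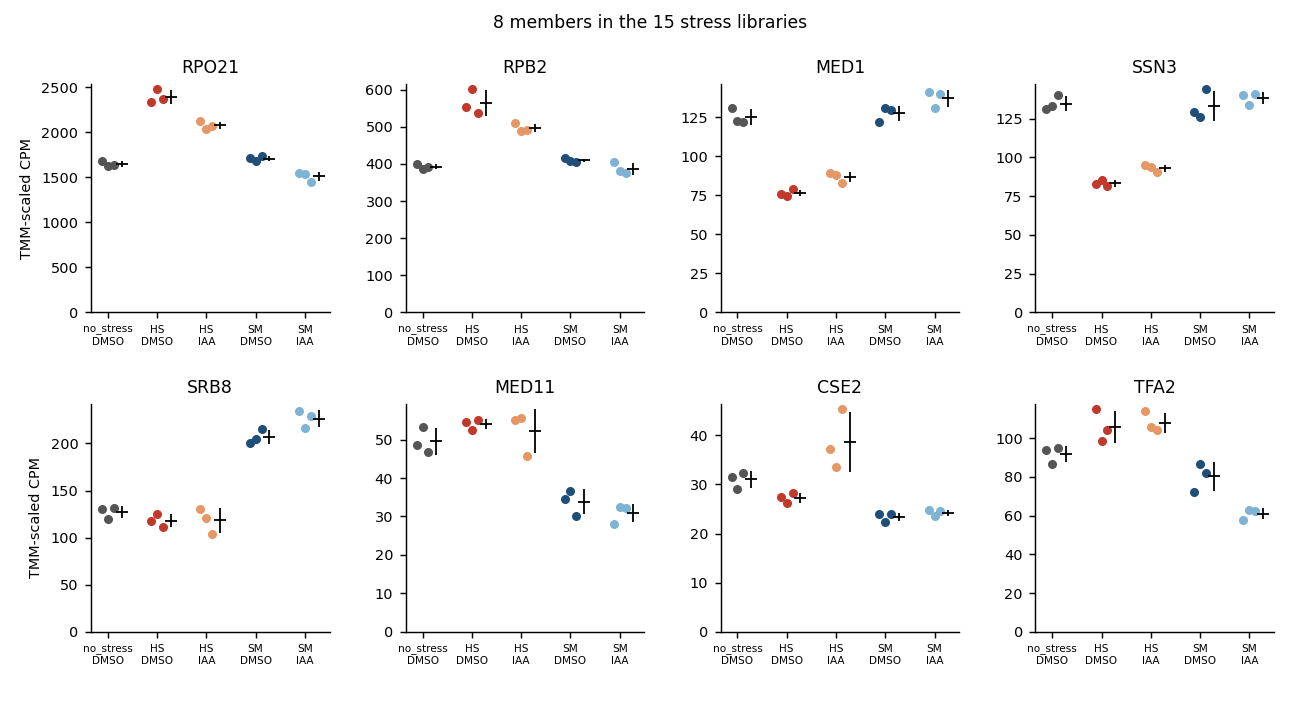
TMM-scaled CPM of members under no stress, HS and SM with DMSO and under HS and SM with IAA; points are libraries, dashes are means and bars are 1 SD (n = 3). RPO21 stands at 2330 to 2480 under HS with DMSO against 1620 to 1680 without stress, and SRB8 at 200 to 215 under SM against 120 to 131.

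With Med15 depleted under HS, 11 members rose and 4 fell relative to DMSO under HS (15.8% and 19.1% of all genes). The 4 that fell were the 3 polymerase genes and SPT15, all of which had risen under HS with DMSO. The comparisons share the DMSO libraries under HS. RPO21 went from 2330, 2480 and 2370 to 2120, 2040 and 2070, 1.15-fold lower (adjusted p = 0.00363), RPB3 from 161, 159 and 167 to 142, 139 and 145 (adjusted p = 0.0196), and RPB2 from 552, 603 and 538 to 510, 489 and 492 (adjusted p = 0.0105). Fitted on the libraries compared alone, RPO21 and RPB2 gave adjusted p = 0.0721 and 0.0657, and 7 members were called in place of 15. RPB3 was lost without Med15_IAA_HS replicate B (0.0613) or Med15_DMSO_HS replicate C (0.0638), and RPB2 without Med15_DMSO_HS replicate B (0.0716). Without Med15_IAA_HS replicate B 9 were called. CSE2 rose from 27.5, 26.2 and 28.2 to 37.2, 33.5 and 45.3 (1.42-fold, adjusted p = 0.00142), SSN8 from 44.3, 53.3 and 59.7 to 62.4, 70.1 and 79.7, and MED6 from 63.7, 69.5 and 70.4 to 86.4, 88.8 and 91.3. The targeted GAL11 was not called, at 717, 700 and 705 against 728, 721 and 647 (adjusted p = 0.826).

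With Med15 depleted under SM, 6 members rose and 10 fell (21.0% and 27.1%). SPT7 rose from 411, 402 and 412 to 497, 494 and 512 (1.23-fold, adjusted p = 2.79e-05), TFB1 from 135, 132 and 135 to 169, 161 and 160, and NUT2 from 33.0, 29.6 and 33.8 to 45.7, 37.4 and 41.5. TFA2 fell from 72.2, 86.9 and 82.2 to 57.7, 63.0 and 62.2 (1.32-fold, adjusted p = 0.000533), with TOA2 of TFIIA (41.7, 45.6 and 34.2 to 31.6, 31.7 and 34.0) and MED4 (45.9, 39.9 and 46.6 to 37.6, 37.2 and 33.8) behind it. The groups of these 6 genes did not overlap, TOA2 by the smallest margin. Without Med15_DMSO_SM replicate B the call of TOA2 was lost (adjusted p = 0.0676), and 9 members were called in place of 16. GAL11 was not called (adjusted p = 0.511). In the same comparison all 4 alpha-specific markers fell and 4 of 5 a-specific markers rose, with summed a-specific levels of 35.0 to 48.6 CPM after IAA against 16 to 17 with DMSO and summed alpha-specific levels of 1180 to 1430 against 4030 to 4360. No marker was at 0 in all libraries of a group. Their part in the members' changes was not tested.

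The effect of Med15 depletion differed between HS and SM for 9 of 48 members, each more positive under HS. Of all 5547 genes tested, 805 were more positive and 775 more negative under HS (28.5% in either direction). The 9 members were ROX3 (0.44 ± 0.09, adjusted p = 0.00108), SSN8 (0.53), CSE2 (0.45), TFA2 (0.42), MED4 (0.36), TAF1 (0.33), TOA1 (0.26), TAF4 (0.25) and PGD1 (0.24), the Med3 tail subunit. With DESeq2 size factors 8 members differed. The count fell to 4 without Med15_IAA_SM replicate C, Med15_DMSO_HS replicate B or Med15_DMSO_SM replicate A and to 5 without Med15_IAA_HS replicate B or Med15_DMSO_SM replicate C.

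Related genes outside the 48 gave a frame for these values. In Med10 all 9 other RNA polymerase II subunit genes fell, with 7 higher than the typical gene, and of the 8 other TAF genes all fell, with 6 higher. RNA polymerase I subunit genes lay further from the typical gene, with a relative median of 0.60 in Med10 and CCL1 and 0.77 in Med14. The alpha-specific genes lay on the other side, at relative medians of -2.22, -2.10 and -2.59. Under HS, 4 of the 9 other polymerase II genes rose and 2 fell, 9 of 10 RNA polymerase III genes fell and 9 of 13 other SAGA genes fell. Under SM, 6 of 7 RNA polymerase I genes rose.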

How the data were processed

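Newly labelled yeast RNA was sequenced, and gene tables were made with Bowtie2 and HTSeq, per the submitters' processing notes, which name the builds sacCer3 and ASM294v2. The versions, the role of ASM294v2, whether counting used strand, and the basis of the scaling were not given in the sources used here. TAF2 overlaps YCR041W by 70 bases on the opposite strand, so reads there cannot be told apart. The deposited tables held 1 value per gene and library: a scaled signal in 162 libraries and raw counts in 15, per the file headers and values. In 106 signal libraries at least 96.52% of values were whole reads within 0.1 of a step. No library pair was identical.

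Signal was tested with limma 3.58.1 (R 4.3.3) on log2(signal + 1), trend, deposited scale, mean signal of at least 10, for each strain against its own control, and counts with edgeR 4.0.16 (TMM, quasi-likelihood, all 15 libraries). Fold changes of signal on that log2 scale understate low genes. P-values were Benjamini-Hochberg adjusted over all tested genes, with calls under 0.05. Relative values and calls of a single gene in a comparison used TMM factors of the signal. Means and ranges over strains, rankings, and relative medians of gene lists used the log2 change minus the all-gene median. These measures can differ slightly for the same gene and strain. Both tests were checked on simulated data. Alternatives were other pseudocounts (0.5 and 5), no filter, other scalings, replicate blocks, leaving out each library, edgeR on recovered reads and DESeq2 1.42.0 size factors. Replicate letters paired the libraries (every pair's deviations correlated above 0.1) in 15 of 32 comparisons, a hint from the data. Genes named are targets, the 3 highest and 3 lowest relative changes in the 8 strong depletions and the HS and SM comparisons, all calls where at most 5 members passed, and the ends of the level order. Other members that complete a count were named after their values were seen. Members and lists were chosen with earlier results of these data known.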

Additional observations from a re-analysis of the deposited data

Results flagged for a closer look

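In 4 tests of a difference between depletions some members differed. Between the Med15_Taf1 and Med15 depletions 44 of 44 members changed by different amounts, and between Med14 and Med15 39 of 39 did, shares that match 99.8% and 99.5% of all genes. Between Med14 and CCL1 4 of 38 members differed (RPB3, SSL2, SSN3 and MED1), where 18.7% of all genes did. The effect of Med15 depletion differed between HS and SM for 9 of 48 members, all more positive under HS, where 28.5% of all genes differed. Of all 5547 genes tested there, 805 were more positive and 775 more negative.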

How the results depend on the processing

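Counts of members called are compared with their main values. With TMM scaling in place of the deposited scale the counts were 1 in CDK8 (main 0), 1 in Med1 (20), 0 in Med1_5 (38), 0 in Med2_15 (27), 8 in Med7C (43), 21 in Med7N (43), 5 in Med12 (3), 19 in Med14 (35), 26 in Med14C (41), 8 in Med15_Med16 (3), 22 in Med17 (41), 14 in Med19 (44), 11 in Med31 (45), 18 in med15del (36), 11 in med7N_del (44), 18 in Med7_EWE3 (43), 3 in Med21_EWE4 (42), 8 in Med6_delH1 (45), and for the differences 20 between Med15_Taf1 and Med15 (44) and 16 between Med14 and Med15 (39). This scale removes by construction the shift that most genes share. With edgeR on recovered reads, also TMM-scaled, they were 2 in CDK8, 1 in Med1, 0 in Med1_5 and Med2_15, 8 in Med15_Med16, 15 in Med19, 11 in Med31 and 3 in Med21_EWE4. With the replicate letter as a block they were 2 in CDK8, Med5 and TID, 8 in Med15_Med16, 8 in med16del (13 without it), and 16 for the relative changes in Med7C (8), and the block moved no other count by over 1.5 times. The pairing held in the data for all of these but CDK8 and med16del. Median scaling gave 14 relative changes in Med7C, no filter 24 members in med16del, and fitting only the libraries compared 7 in Med15_HS (15); the cause was not tested. Leaving out each library in turn gave 0 to 1 in CDK8, 3 to 37 in Med1, 12 to 42 in Med1_5, 3 to 47 in Med2_15, 0 to 2 in Med7, 0 to 6 in Med12, 0 to 1 in Med15, 0 to 8 in Med15_Med16, 6 to 16 in med16del, 9 to 13 in Med15_HS, 9 to 12 in Med15_SM, 4 to 9 for the difference of Med15_HS and Med15_SM, 2 to 5 for Med14 and CCL1, and, on the relative scale, 3 to 7 in Med7C, 13 to 18 in Med7N and 7 to 12 in Med31.

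Single genes turned sign only between the deposited and the TMM scale. With TMM scaling MED1, RAD3, TAF5 and CCL1 were at 1.47, 1.17, 0.74 and 0.33 in CCL1; RAD3, SSL2 and MED1 at 1.03, 0.73 and 0.63 in Med10; RAD3, SSL2, MED1 and RGR1 at 1.29, 1.03, 0.69 and 0.47 in Med14; RAD3, CCL1, SSL2 and RGR1 at 0.72, 0.52, 0.49 and 0.29 in Med14C. SUA7, RAD3, SSL2, GAL11 and TAF1 were at 0.85, 0.80, 0.68, 0.19 and 0.23 in Med15_Taf1, RAD3, SSL2 and RPB3 at 0.89, 0.49 and 0.45 in Med17, MED7 at 0.09 in Med7N and MED6 at 0.05 in Med6_delH1. RAD3, CCL1 and SSL2 were at 0.68, 0.42 and 0.44 in Med19 (edgeR 0.70, 0.45 and 0.45), and RAD3, SSL2 and NUT2 at 0.67, 0.54 and 0.36 in Med31 (edgeR 0.69, 0.54 and 0.42). Depth limits members under a mean signal of 10, and in 56 libraries depth is unknown.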

Other observations

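The Med15_Spt7_DMSO libraries, a strain with degron fusions on both MED15 and SPT7, entered no comparison. SPT7 stood there at 144, 141 and 144 per kb, against a median of 158 over the other control groups, and GAL11 at 272, 272 and 280 per kb, against 332.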
